A study of Mus musculus with 24 samples.

Results

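The IGF1 effect on the infarcted mouse heart was followed from 24 h to 48 h of reperfusion as a change of difference: IGF1 minus vehicle at 48 h, less IGF1 minus vehicle at 24 h. The 16 arrays of these 2 times were chosen by their titles, out of 24 arrays in the series, with 4 arrays in each of the 4 groups. Expression is given as log2 of the processed signal minus the array's 75th percentile, so a value of 0 equals the 75th percentile of that array and a difference of 1 is a doubling. The hearts were those of male C57BL6/J mice whose left anterior descending artery had been closed for 45 min and reopened, and the RNA came from the anterior wall, where the area at risk lay. IGF1 mice received 40 ng/g of insulin-like growth factor 1 (IGF1) at once and then 1 µg/g per day from a pump for up to 3 days, a span that covers both times. Vehicle mice received phosphate-buffered saline with 0.1% albumin. Every vehicle label names 45 min of ischemia while the design text of the series speaks of sham-operated controls, and the labels were followed here. The age of the mice is not given in the sources used here. The labels do not name the animals, so p-values measure only the spread between these samples.

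IGF1 binds a receptor tyrosine kinase that signals through PI3-kinase and AKT, which hold FoxO transcription factors out of the nucleus. FoxO factors and the fatty acid receptor PPAR-alpha drive genes of fat use and of muscle protein breakdown. After an infarct, neutrophils and monocytes enter the dying muscle, and proliferating cells follow as the wound is cleared and scarred.

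Per array, 52.8 to 62.9% of spots exceeded background clearly, and tests covered 15875 genes. Arrays of 1 group correlated at 0.984 to 0.993 across genes, which are not independent replicates. The tissue carried heart muscle RNA on all 16 arrays: the mean log2 level of 20 cardiomyocyte markers was 6.10 to 6.50 in vehicle and 6.57 to 6.99 in IGF1 arrays at 24 h, and 6.17 to 6.61 and 6.23 to 6.30 at 48 h. Over 1 gene list, 1 vehicle array of 24 h lay below the others of its group. Vehicle replicate 3 at 24 h had a mean log2 level of -0.65 over 33 cell cycle genes, against 0.34 to 0.75 in the other vehicle arrays of that time.

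The first question was how much of the 24 h response was still there a day later. At 24 h, 1390 genes were higher with IGF1 (8.76% of those tested) and 1152 were lower (7.26%). Their sum of 2542 was 1203 without IGF1 24 h replicate 1 and 1319 without vehicle 24 h replicate 2, and 1888 to 2736 without any other single array. At 48 h, 2 genes passed (0.0126%), and both were lower with IGF1: Il6, a cytokine of the acute phase, and Cd7, a surface protein of T and NK cells. An unadjusted p under 0.05 was reached by 1410 genes at 48 h (8.88%). The test of the change itself was passed by 11 genes (0.0693%), of which 9 moved downward (0.0567%) and 2 upward (0.0126%). An unadjusted p under 0.05 of the change was reached by 2755 genes (17.4%), 1613 downward (10.2%) and 1142 upward (7.19%).

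The difference between the counts at 24 h and 48 h is therefore not a count of effects shown to be lost. A gene was called lost where it passed at 24 h, its change passed in the opposite direction and its 95% interval at 48 h held 0. It was called kept where it passed at 24 h and its 48 h interval lay on the same side of 0. It was called reversed where the change passed and the 24 h and 48 h intervals lay on opposite sides. None of these intervals was adjusted for the number of genes tested. By these definitions 6 genes were lost (4 from higher, 2 from lower), 5 reversed from higher to lower, and 0 were gained at 48 h by limma's adjusted test (258 by the unadjusted p of the change). Kept were 90 of the 1390 higher genes (6.47%; 0.567% of all genes) and 214 of the 1152 lower genes (18.6%; 1.35% of all genes). Over all genes tested, the 48 h interval lay above 0 in 3.86% and below 0 in 5.03%. The remaining 1291 higher and 936 lower genes could not be placed, because their change did not pass. In 24 and 7 of these the 48 h interval lay on the other side of 0, and in the rest it held 0. With the unadjusted p of the change, 939 of the 1390 (67.6%) and 567 of the 1152 (49.2%) met the definition of lost. With the adjusted p required at 48 h, Cd7 was the 1 gene kept and 0 genes were reversed.

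**Figure D1:**
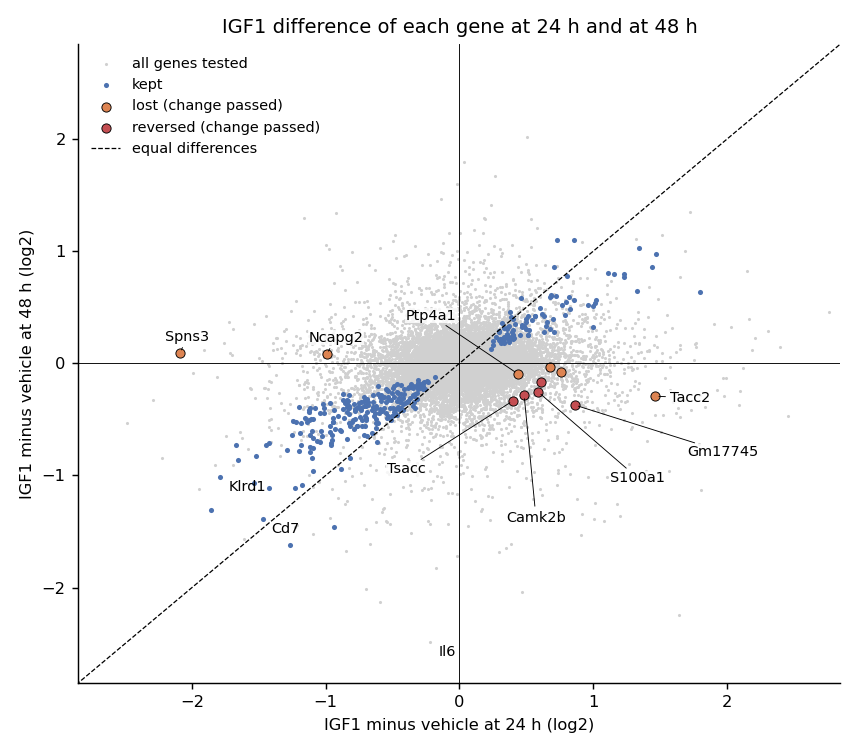
Each point is 1 of 15875 genes, placed by its log2 difference of IGF1 minus vehicle at 24 h (x axis) and at 48 h (y axis). The dashed line marks equal differences, blue points are the 304 genes called kept, and the 11 genes with outlined points, 8 of them named, passed the test of the change and lie near or beyond a 48 h difference of 0.

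The plot of both differences shows a cloud that was wider at 24 h than at 48 h, with an SD across genes of 0.38 against 0.25. The 2 sets of differences come from different arrays and correlated at 0.18 across genes. Among genes higher at 24 h the median log2 difference went from 0.52 to 0.03, and among genes lower at 24 h from -0.55 to -0.11. The 48 h difference had the same sign in 810 of the 1390 higher genes (58.3%, against 48.5% of all genes above 0) and in 806 of the 1152 lower genes (70%, against 51.5% below 0). Genes chosen for a large 24 h difference carry that difference into the change, so the choice itself sets part of the direction of their change.

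The 11 calls depend on the libraries and the settings. Fitting the 16 arrays alone, without the third time point, called 0 genes with limma, while 2617 had an unadjusted p under 0.05 there. Leaving out vehicle 48 h replicate 3 raised the count to 275 (238 downward), leaving out vehicle 24 h replicate 3 to 229 (167 upward), and leaving out IGF1 24 h replicate 4 to 123. Without IGF1 24 h replicate 3 the count was 50, without vehicle 24 h replicate 4 it was 46, and without IGF1 24 h replicate 2 it was 18. Without vehicle 24 h replicate 2 or IGF1 48 h replicate 4 it fell to 2, and without IGF1 24 h replicate 1, IGF1 48 h replicate 2 or vehicle 48 h replicate 4 to 3. It was 6 without IGF1 48 h replicate 3, and 7 without IGF1 48 h replicate 1 or vehicle 24 h replicate 1. On the 2 slides that held all 4 groups, all 11 genes had the same sign of change on both, as did 86.2% of the 2755 genes with an unadjusted p under 0.05 of the change and 54.5% of all genes. These arrays are part of the fit that chose the genes, so the choice sets much of that sharing of sign. Just inside the threshold lay 6 genes with an adjusted p of 0.0334, and the nearest gene outside had 0.050039.

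Tacc2, a centrosome- and spindle-associated coiled-coil protein, showed the most negative change among the 11. Its log2 level at 24 h was 4.17, 3.55, 4.60 and 4.28 in vehicle and 5.43, 5.95, 5.30 and 5.77 in IGF1 arrays. At 48 h it was 3.99, 4.11, 3.68 and 4.18 in vehicle and 3.80, 3.80, 3.72 and 3.48 in IGF1 arrays. The IGF1 arrays of 24 h thus lay above all others, and at 48 h the groups overlapped. The difference went from 1.47 (SE 0.17, adjusted p 0.000299) to -0.29 (SE 0.17, adjusted p 0.641), a change of -1.76 (SE 0.24, adjusted p 0.00598), and the call held under 28 of 29 alternatives. Within slides the change of Tacc2 was -2.66 on slide 2 and -0.79 on slide 3.

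Ptp4a1, a membrane-bound tyrosine phosphatase, was lost as well. It read 5.02, 5.04, 5.10 and 5.15 in vehicle and 5.52, 5.41, 5.55 and 5.59 in IGF1 arrays at 24 h. At 48 h it averaged 4.93 ± 0.11 in vehicle (from 4.81 to 5.03) and 4.83 ± 0.04 in IGF1 arrays (from 4.77 to 4.86; SD, n = 4). All IGF1 arrays of Ptp4a1 stood above all vehicle arrays at 24 h, and the groups overlapped at 48 h. The difference went from 0.44 (SE 0.06, adjusted p 0.000428) to -0.09 (SE 0.06, adjusted p 0.695), a change of -0.53 (SE 0.09, adjusted p 0.0275). Between the 2 times vehicle Ptp4a1 differed by -0.15 (adjusted p 0.0857) while IGF1 Ptp4a1 fell by 0.69 on the log2 scale (adjusted p 1.42e-07).

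S100a1 and Camk2b, both tied to calcium handling in heart muscle, were among the reversed genes. Neither passed the adjusted test at 48 h, where limma's unadjusted p was 0.0249 for S100a1 and 0.00969 for Camk2b. S100a1, a calcium-binding protein of cardiomyocytes, averaged 3.87 ± 0.14 in vehicle and 4.46 ± 0.16 in IGF1 arrays at 24 h, and 3.86 ± 0.24 and 3.60 ± 0.10 at 48 h (SD, n = 4). Its change was -0.84 (SE 0.15, adjusted p 0.0334). Camk2b, the beta subunit of calcium/calmodulin-dependent kinase II, read -0.65, -0.81, -0.90 and -0.52 in vehicle and -0.04, -0.39, -0.21 and -0.31 in IGF1 arrays at 24 h. At 48 h it read -0.92, -0.82, -0.73 and -0.62 in vehicle and -1.08, -0.96, -1.01 and -1.17 in IGF1 arrays. The Camk2b groups did not overlap at either time, and their order was turned. The change was -0.77 (SE 0.14, adjusted p 0.0334), and it passed in 14 of 29 alternatives, the fewest among the 11 genes.

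Tsacc, a co-chaperone described for a testis kinase, read -0.34, -0.26, -0.40 and -0.12 in vehicle and 0.27, 0.12, 0.20 and -0.11 in IGF1 arrays at 24 h. At 48 h it read 0.07, 0.08, -0.03 and 0.28 in vehicle and -0.04, -0.23, -0.22 and -0.45 in IGF1 arrays. Here vehicle Tsacc rose with time (0.38, adjusted p 0.00493) while IGF1 Tsacc fell (-0.36, adjusted p 0.00384), giving a change of -0.73 (SE 0.13, adjusted p 0.0329). Gm17745, a predicted gene, followed the same course at a low signal: it changed by -1.24 (SE 0.22, adjusted p 0.0334), with 0.86 at 24 h and -0.37 at 48 h. The groups of arrays did not overlap at 48 h in 3 of the 11 genes, Tsacc and Camk2b among them, all with IGF1 below, an arrangement that 3.33% of all genes showed, against 2.56% with IGF1 above. At 24 h the groups of all 11 genes were apart. Over all genes this held in 10.1% with IGF1 above and 8.31% with IGF1 below. The differences of both times are part of the change that chose these genes, so the choice favours such separation at 24 h and at 48 h.

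Both upward genes were lower with IGF1 at 24 h and level with vehicle at 48 h. Ncapg2, a subunit of the condensin II complex that compacts chromosomes, read 0.07, -0.02, -0.54 and -0.03 in vehicle and -1.41, -0.92, -1.01 and -1.15 in IGF1 arrays at 24 h. At 48 h it read 0.57, 0.57, 0.38 and 0.21 in vehicle and 0.49, 0.51, 0.55 and 0.51 in IGF1 arrays. The change of Ncapg2 was 1.07 (SE 0.20, adjusted p 0.0334), on a rise with time of 0.56 in vehicle and 1.64 in IGF1 hearts. Spns3, a member of the spinster transporter family, changed by 2.18 (SE 0.34, adjusted p 0.0154), but its probe was well above background on 2 vehicle and 0 IGF1 arrays at 24 h and on 1 and 2 arrays at 48 h. Against the lowest signal measured above background, Spns3 was at least 1.33-fold lower with IGF1 at 24 h.

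**Figure D2:**
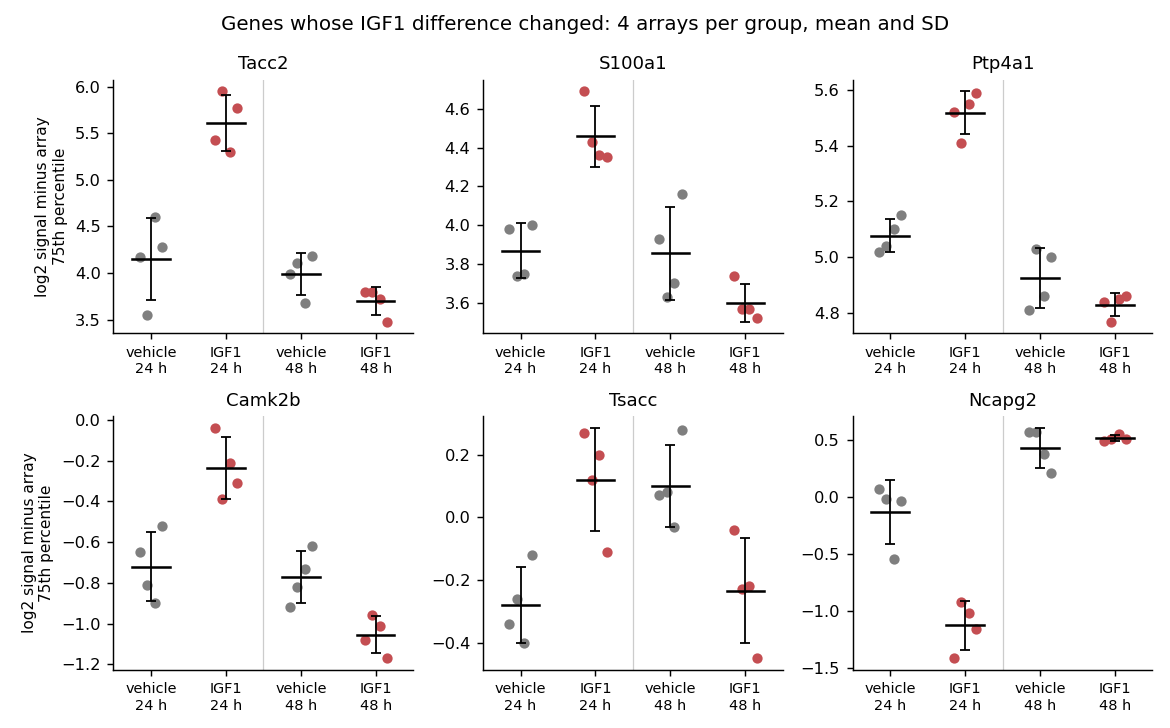
Each panel plots the log2 level of 1 gene on the 4 arrays of a group (dots, vehicle grey and IGF1 red), with the group mean (line) and SD (bar). Tacc2, S100a1, Ptp4a1 and Camk2b were highest in the IGF1 arrays of 24 h, and Ncapg2 was lowest there. At 48 h the groups of Tacc2, Ptp4a1 and Ncapg2 overlapped, while those of Camk2b and Tsacc were apart with IGF1 below.

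In the downward genes the movement with time lay mostly in the IGF1 hearts, as the plot of single genes shows. The fall of the IGF1 group from 24 to 48 h passed in 8 of the 9 genes, and the change of the vehicle group with time passed in 3 of the 9, with Tsacc and Gm17745 among them. Across all genes, 5964 passed with time in IGF1 hearts (37.6%; 21.3% fell and 16.3% rose) and 3609 in vehicle hearts (22.7%; 11.5% fell and 11.2% rose). Each of these time comparisons shares its arrays with the change.

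Genes of fatty acid oxidation were higher with IGF1 at 24 h and level with vehicle at 48 h, though none of the 24 measured members passed the test of the change. At 24 h 21 of the 24 were higher with IGF1 (8.76% of all genes were), and 15 without IGF1 24 h replicate 1. At 48 h none had an unadjusted p under 0.05 (8.88% of all genes had). The median difference was 0.70 at 24 h and 0.00 at 48 h, with a median change of -0.69, against -0.01 over all genes. An unadjusted p of the change under 0.05 was reached by 22 of the 24 (91.7%, against 10.2% of all genes), all downward. With single arrays left out, the number passing the adjusted test was 5 of the 24 at most, without vehicle 48 h replicate 3. It was 2 without IGF1 24 h replicate 4 or vehicle 24 h replicate 3. It was 1 without IGF1 24 h replicate 3 or vehicle 24 h replicate 4, and 0 without any other single array. Cpt1b, which lets fatty acids into mitochondria, read 2.91, 2.55, 2.53 and 3.27 in vehicle and 4.35, 3.87, 3.63 and 3.53 in IGF1 arrays at 24 h. At 48 h Cpt1b read 3.34, 3.19, 3.55 and 3.60 in vehicle and 3.30, 3.15, 3.36 and 3.22 in IGF1 arrays. The groups of Cpt1b were apart at 24 h and overlapped at 48 h, and its change was -1.19 (SE 0.26, adjusted p 0.0669). In vehicle hearts Cpt1b rose by 0.60 (adjusted p 0.0232) and in IGF1 hearts it fell by 0.59 on the log2 scale (adjusted p 0.0167), so the groups met from both sides.

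Other members moved mainly in the IGF1 group. Mlycd, which removes the malonyl-CoA that blocks fatty acid entry, had a difference of 1.08 at 24 h and -0.01 at 48 h (change -1.09, adjusted p 0.0683). The fatty acid transporter Cd36 had 0.99 and 0.29 (change -0.70, adjusted p 0.11), and its change was -1.43 on slide 2 and 0.11 on slide 3. The mitochondrial thioesterase Acot2 had 1.38 and 0.23 (change -1.15, adjusted p 0.0988). The medium-chain dehydrogenase Acadm had 0.71 and -0.09 (change -0.80).

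The list of PPAR-alpha and fasting targets behaved alike in direction. Of 11 measured members 7 were higher with IGF1 at 24 h (8.76% of all genes were). At 48 h none had an unadjusted p under 0.05 (8.88% of all genes had). The median difference was 0.93 at 24 h and -0.01 at 48 h. All 11 changes were below 0 and 7 had an unadjusted p under 0.05, against 10.2% downward over all genes. With all arrays 0 of the 11 passed the adjusted test. With single arrays left out 3 passed at most, without IGF1 24 h replicate 3 or vehicle 48 h replicate 3. Pdk4, the kinase that shuts off glucose oxidation at pyruvate dehydrogenase, read 3.86, 3.67, 4.86 and 3.64 in vehicle and 6.26, 6.11, 4.96 and 6.04 in IGF1 arrays at 24 h. At 48 h Pdk4 read 2.06, 2.88, 2.93 and 3.02 in vehicle and 1.86, 3.02, 2.09 and 2.35 in IGF1 arrays. Replicate 3 of both groups at 24 h lay between the rest, the vehicle one high and the IGF1 one low. The change of Pdk4 was -2.23 (SE 0.47, adjusted p 0.0587), and the level fell with time in vehicle by 1.28 on the log2 scale (adjusted p 0.00883) and in IGF1 hearts by 3.51 (adjusted p 1.89e-07). The lipid droplet protein Plin5 had a change of -1.53 (adjusted p 0.0683), from 1.65 to 0.13. The thioesterase Acot1 went from 1.76 to 0.17, and the receptor Ppara itself from 0.69 to -0.01.

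The respiratory chain and citric acid cycle showed smaller differences with the same course. Of 22 measured members 19 were higher at 24 h (8.76% over all genes), and the median difference was 0.44 at 24 h and -0.07 at 48 h. All 22 changes were below 0 and 20 had an unadjusted p under 0.05 (10.2% downward over all genes). The count of 19 was 3 without IGF1 24 h replicate 1, 5 without vehicle 24 h replicate 2 and 9 without vehicle 24 h replicate 3. The count of 20 was 13 without vehicle 48 h replicate 4 and 11 with quantile normalization. The median change was -0.46, and -0.35 with quantile normalization. Ogdh, a dehydrogenase of the cycle, went from 0.54 to -0.10 (change -0.64, adjusted p 0.0953).

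FoxO targets and muscle atrophy genes were a mixed group. Of 25 measured members 9 were higher at 24 h (8.76% over all genes) and 10 had a downward change with an unadjusted p under 0.05 (10.2% over all genes). The 10 became 6 without IGF1 24 h replicate 1, vehicle 24 h replicate 2 or vehicle 48 h replicate 4. The median difference was 0.29 at 24 h and -0.03 at 48 h. Fbxo31, a ubiquitin ligase subunit, went from 1.38 to 0.04 (change -1.34, adjusted p 0.0683). The atrophy ligase Fbxo32 went from 1.13 to -0.01 (change -1.14, adjusted p 0.105), and the mitophagy receptor Bnip3 from 0.93 to 0.04 (change -0.89, adjusted p 0.103). The glucocorticoid-induced factor Klf15 went from 1.02 to 0.30, and Txnip, an inhibitor of glucose uptake, from 1.00 to 0.05.

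Markers of cardiomyocytes moved with these metabolic lists. Of 20 markers 9 were higher with IGF1 at 24 h (8.76% over all genes), 19 changes were below 0 and 10 had an unadjusted p under 0.05 (10.2% downward over all genes), with a median difference of 0.42 at 24 h and -0.04 at 48 h. The 9 became 3 without IGF1 24 h replicate 1 and 3 without vehicle 24 h replicate 2. With quantile normalization 7 markers were higher and 1 was lower at 24 h. In that setting 5 changes were downward and 1 was upward with an unadjusted p under 0.05, and the median change was -0.30. The calcium pump Atp2a2 went from 0.78 to -0.19 (change -0.97, SE 0.23, adjusted p 0.0683) and the sarcomere protein Myoz2 from 0.74 to -0.02 (change -0.76, adjusted p 0.0832). The main myosin Myh6 had 0.17 and -0.23 (change -0.40), neither of which passed. In tissue RNA, fewer cells of a type and less RNA per cell cannot be told apart, and the part of the muscle markers in the metabolic differences was not tested. IGF1 24 h replicate 1 was the highest array of its group for both: 5.73 against 5.12 to 5.35 over the fatty acid oxidation list, and 6.99 against 6.57 to 6.64 over the markers. Without it the median change was -0.55 for fatty acid oxidation and -0.39 for the markers. Within slides, the mean fatty acid oxidation difference changed by -0.94 on slide 2 and -0.34 on slide 3.

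**Figure D3:**
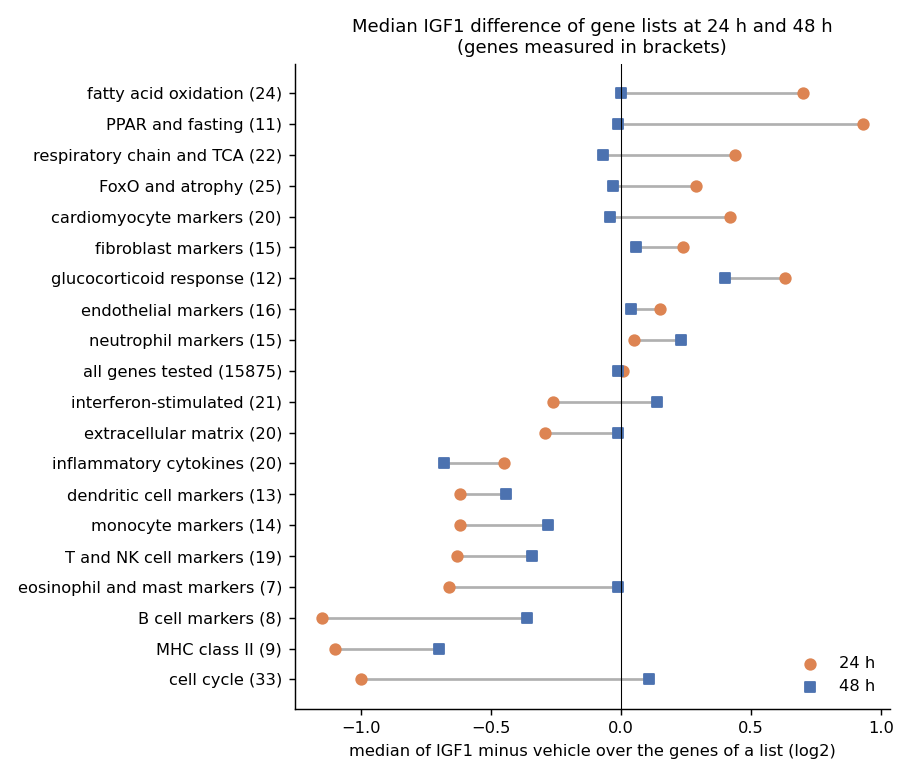
The x axis gives the median log2 difference of IGF1 minus vehicle over the measured genes of a list, at 24 h (circles) and 48 h (squares), with the number of genes in brackets. Metabolic and muscle lists moved from between 0.29 and 0.93 to about 0, the cell cycle list from -1.0 to 0.11, and MHC class II was at -1.10 and then -0.70.

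Cell cycle genes took the opposite course. Of 33 measured members 26 were lower with IGF1 at 24 h (7.26% of all genes were). At 48 h no member passed or had an unadjusted p under 0.05. Over all genes, 0.0126% passed at 48 h and 8.88% had an unadjusted p under 0.05. The median difference was -1.0 at 24 h and 0.11 at 48 h, and the median change of 1.12 came with all 33 changes above 0 and 29 with an unadjusted p under 0.05, against 7.19% upward over all genes. No member passed the adjusted test with all arrays. From 24 to 48 h the median time difference of the list was 1.64 in vehicle and 2.77 in IGF1 hearts.

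Mki67, the proliferation marker Ki-67, read 2.09, 2.29, 0.27 and 1.83 in vehicle and 0.72, 0.52, 0.48 and 0.18 in IGF1 arrays at 24 h. At 48 h Mki67 read 3.79, 3.79, 3.70 and 3.28 in vehicle and 3.84, 3.89, 3.88 and 3.54 in IGF1 arrays. Vehicle replicate 3 lay among the IGF1 arrays at 24 h, and at 48 h both groups were high and overlapped. The change of Mki67 was 1.29 (SE 0.42, adjusted p 0.126). The mitotic transcription factor Foxm1 had a change of 1.26 (adjusted p 0.107), the inhibitor of apoptosis Birc5 one of 1.16 (adjusted p 0.111) and the topoisomerase Top2a one of 1.13 (adjusted p 0.126). The mitotic kinase Plk1 went from -1.30 to 0.20. DNA replication and checkpoint genes with less spread among arrays came nearer to the threshold: the helicase subunit Mcm6 had a change of 0.74 (adjusted p 0.0683) and the spindle checkpoint protein Mad2l1 one of 0.82 (adjusted p 0.0683). Tonsl, which repairs stalled replication forks, had a change of 0.84 (adjusted p 0.0587), and the kinesin Kif21b one of 0.89 (adjusted p 0.0607).

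These values turn on single vehicle arrays of 24 h, replicate 3 most. Without it the median change of the 33 genes was 1.49, 22 of the 33 passed the adjusted test upward and 29 were lower at 24 h. The 26 genes lower at 24 h became 11 without vehicle 24 h replicate 2, 16 without vehicle 24 h replicate 1 and 18 without IGF1 24 h replicate 1. Slide 3, which held vehicle 24 h replicate 3, gave a change of -0.05 for the mean of the list, with a 24 h difference of 0.11, whereas slide 2 gave 1.15 with a 24 h difference of -1.12. Over the other arrays left out in turn the median change was 0.93 at the lowest.

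Promoters are shown for 2 of these genes, Ncapg2, which passed, and Cdc20, the activator of the anaphase-promoting complex (change 1.12, adjusted p 0.125), because members of the list moved together. The sequences are the 250 bases before the RefSeq start on GRCm38.p6, read along the gene's strand, at chr12:116405186-116405435 (plus strand) and chr4:118437344-118437593 (minus strand). Capitals mark TTTGAA, the cell cycle homology element, on either strand in both, with TTCCCGC, an E2F-type motif, in Ncapg2 and CCAAT in Cdc20.
Ncapg2: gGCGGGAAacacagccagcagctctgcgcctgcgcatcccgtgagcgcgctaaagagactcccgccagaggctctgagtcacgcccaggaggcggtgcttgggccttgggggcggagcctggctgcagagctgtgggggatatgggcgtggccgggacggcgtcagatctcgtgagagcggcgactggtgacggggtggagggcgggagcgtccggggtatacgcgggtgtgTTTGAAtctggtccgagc
Cdc20: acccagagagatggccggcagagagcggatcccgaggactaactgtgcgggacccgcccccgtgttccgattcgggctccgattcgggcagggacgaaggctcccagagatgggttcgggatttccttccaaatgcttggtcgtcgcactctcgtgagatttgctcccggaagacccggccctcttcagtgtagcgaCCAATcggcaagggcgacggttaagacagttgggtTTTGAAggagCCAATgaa
In both promoters TTTGAA began 18 bases before the start. TTTGAA and CCAAT together, on either strand, were in 9 of the 27 cell cycle promoters matched by symbol (33.3%) and in 537 of the 12551 tested genes with a promoter in the table (4.28%). TTCCCGC was in 2 of the 27 (7.41%) and in 6.37% of the 12551. In the FoxO and atrophy list GTAAACA, the forkhead motif, was in 2 of 21 promoters (9.52%, against 2.21%). AGGTCA repeated after 1 base, the PPAR-type element, was in 0 of 21 fatty acid oxidation and 0 of 9 PPAR promoters, and in 6 of the 12551 (0.0478%). These are matches of letters in a short window and describe no binding.

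**Figure D4:**
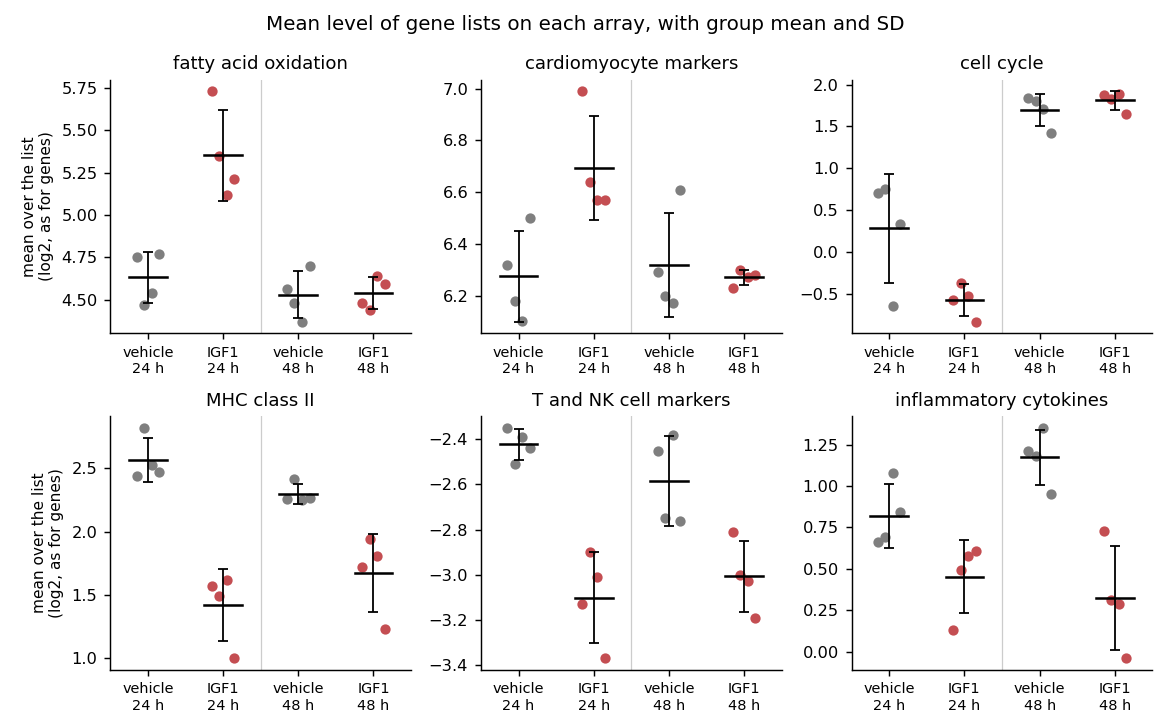
Each dot is the mean log2 level of a gene list on 1 array, with the group mean (line) and SD (bar) of 4 arrays. Fatty acid oxidation genes and cardiomyocyte markers were higher in the IGF1 than in the vehicle arrays of 24 h and overlapped at 48 h, the cell cycle list was high at 48 h in both treatments, and MHC class II and T and NK cell markers were lower with IGF1 at both times.

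Among the 37 gene lists, MHC class II had the largest share of kept members. MHC class II genes, which present antigen to helper T cells, were lower with IGF1 at 24 h in 9 of 9 measured members, and 7 of the 9 were kept, against 1.35% of all genes kept lower. Without IGF1 48 h replicate 4, 4 of the 9 were kept. The median difference was -1.10 at 24 h and -0.70 at 48 h. No member passed the test of the change, whose median was 0.46, and none passed the adjusted test at 48 h. H2-Ab1, the beta chain of I-A, read 4.93, 5.36, 5.11 and 5.13 in vehicle and 4.20, 3.85, 4.27 and 3.42 in IGF1 arrays at 24 h. At 48 h H2-Ab1 read 4.65, 4.82, 4.96 and 4.90 in vehicle and 4.06, 4.34, 4.20 and 3.60 in IGF1 arrays. The IGF1 arrays of H2-Ab1 were below the vehicle arrays at both times. Its differences were -1.20 (adjusted p 0.00335) and -0.78 (adjusted p 0.343), with a change of 0.42 (SE 0.34, adjusted p 0.546). Ciita, the master activator of these genes, had -1.45 and -0.73, and the invariant chain Cd74 had -1.05 and -0.70.

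The promoter of H2-Eb1, the beta chain of I-E, is shown because class II genes moved together. It spans chr17:34305617-34305866 (plus strand, GRCm38.p6, RefSeq), and capitals mark GATTGG or its reverse CCAATC, the core of the Y box.
H2-Eb1: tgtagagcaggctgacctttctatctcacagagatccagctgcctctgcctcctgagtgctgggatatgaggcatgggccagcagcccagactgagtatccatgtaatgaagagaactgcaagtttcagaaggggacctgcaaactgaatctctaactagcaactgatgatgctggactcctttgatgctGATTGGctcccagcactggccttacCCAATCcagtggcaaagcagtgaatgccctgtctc
The Y box core was in 4 of the 6 class II promoters matched (66.7%) and in 18.8% of the 12551, and its letters overlap CCAAT on the opposite strand. It was also in 18 of the 27 cell cycle promoters (66.7%). H2-Eb1 itself had differences of -1.19 (adjusted p 0.0031) and -0.73 (adjusted p 0.373).

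T and NK cell genes were lower at 24 h in 8 of 19 measured members and higher in 1 (7.26% and 8.76% of all genes). Kept lower were 5 of the 19, against 1.35% of all genes. The 5 became 2 without IGF1 48 h replicate 4 or vehicle 48 h replicate 1, and 3 without IGF1 48 h replicate 2 or 3 or vehicle 48 h replicate 2. Cd7 was the 1 gene that passed at both times. It read -2.29, -2.09, -2.22 and -2.04 in vehicle and -3.37, -3.36, -3.79 and -4.01 in IGF1 arrays at 24 h. At 48 h Cd7 read -2.53, -2.55, -2.41 and -2.50 in vehicle and -3.94, -3.58, -3.43 and -4.58 in IGF1 arrays. The groups of Cd7 were apart at both times, with 3 of the 4 IGF1 arrays of 48 h well above background. Its difference was -1.47 (SE 0.20, adjusted p 0.000299) and then -1.38 (SE 0.20, adjusted p 0.00648), a change of 0.09 (SE 0.28, adjusted p 0.903). Klrd1, the NK cell receptor CD94, had -1.79 (adjusted p 0.000299) and -1.01 (adjusted p 0.209), with the groups apart at both times. The T cell kinase Lck had -0.93 and -0.41.

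Monocyte, dendritic and B cell markers had median differences of -0.62, -0.62 and -1.15 at 24 h and of -0.28, -0.44 and -0.36 at 48 h. Of 14 monocyte markers 7 were lower at 24 h and 4 of those were kept (7.26% and 1.35% of all genes). Another 1 was higher at 24 h (8.76% of all genes), and at 48 h 4 of the 14 differences were above 0. Ccr2, the receptor that brings monocytes out of the bone marrow, read 2.01, 2.10, 2.26 and 2.29 in vehicle and 1.07, 1.17, 1.13 and 1.02 in IGF1 arrays at 24 h. At 48 h Ccr2 read 1.66, 1.55, 1.70 and 1.61 in vehicle and 0.83, 1.14, 1.07 and 0.72 in IGF1 arrays. Its groups were apart at both times, with differences of -1.07 (adjusted p 0.000485) and -0.69 (adjusted p 0.209). The fractalkine receptor Cx3cr1 had -1.29 and -0.77, and the growth factor receptor Csf1r -0.59 and -0.28. Of 13 dendritic cell markers 7 were lower at 24 h and 3 of those were kept (7.26% and 1.35% of all genes). The 3 became 2 without IGF1 24 h replicate 2 or 4, vehicle 24 h replicate 2 or 3, or vehicle 48 h replicate 1 or 2. They became 5 without vehicle 48 h replicate 4. Among the 3 were the growth factor receptor Flt3 (-1.25 and -0.64) and the lectin Cd209a (-1.42 and -1.11). Of 8 B cell markers 5 were lower at 24 h and 3 of those were kept (7.26% and 1.35% of all genes). Without IGF1 48 h replicate 4, 1 was kept. Among the 3 was the antigen receptor chain Cd79b (-1.18 and -0.54). At 48 h 1 of the 8 differences was above 0, with an unadjusted p under 0.05 (3.86% of all genes). The change had an unadjusted p under 0.05 upward in 3 markers and downward in 1 (7.19% and 10.2% of all genes). Ms4a1, the B cell protein CD20, had -1.81 and then -0.12 (change 1.69, adjusted p 0.0832). Siglecf, a lectin of eosinophils, had -1.72 and then 0.09 (change 1.81, adjusted p 0.0683).

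IGF1 48 h replicate 4 was the lowest array of its group in several of these lists. Its MHC class II mean was 1.23 against 1.72 to 1.94 in the other 3 arrays, and all vehicle arrays of 48 h were at 2.25 or more. Without that array 126 genes were kept lower in place of 214, and without vehicle 48 h replicate 4 there were 298. The mean of the T and NK cell markers was -2.51 to -2.35 in vehicle and -3.37 to -2.90 in IGF1 arrays at 24 h, and -2.76 to -2.38 and -3.19 to -2.81 at 48 h, with no overlap at either time. The share of these cell types in the tissue was not measured, and the part of the cell markers in the MHC class II difference was not tested.

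**Figure D5:**
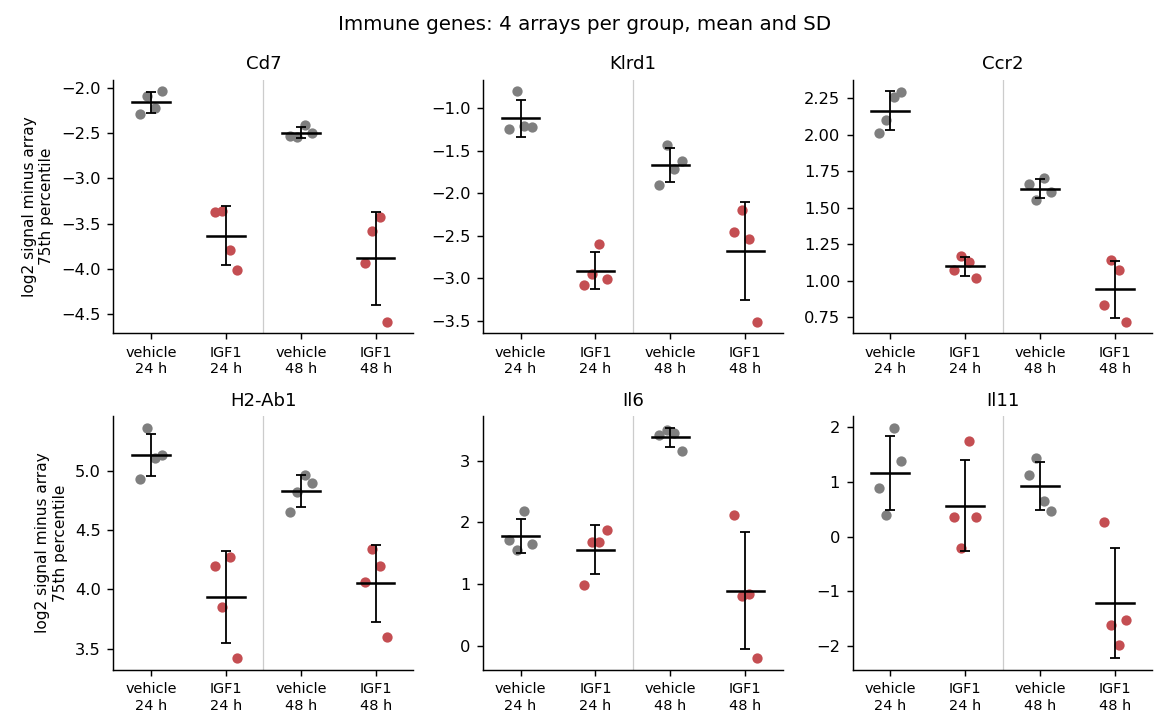
Each panel plots the log2 level of 1 immune gene on the 4 arrays of a group (dots, vehicle grey and IGF1 red), with the group mean (line) and SD (bar). IGF1 arrays of Cd7, Klrd1, Ccr2 and H2-Ab1 lay below vehicle arrays at 24 h and 48 h, while Il6 and Il11 were apart at 48 h alone.

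On the higher side 90 genes were kept. Depp1, a FoxO-induced gene, averaged 1.49 ± 0.41 in vehicle and 2.82 ± 0.42 in IGF1 arrays at 24 h and 0.85 ± 0.23 and 1.50 ± 0.25 at 48 h (SD, n = 4), with the groups apart at both times. The alkaline ceramidase Acer2 had differences of 0.80 (adjusted p 0.0096) and 0.78 (adjusted p 0.224). Hif3a, a member of the hypoxia-inducible factor family, had 1.34 and 1.03, with 2 vehicle arrays well above background at each time. The serine protease inhibitor Serpina3m had 1.80 and 0.64. Spock2, a matrix proteoglycan, had 0.71 and 0.86. Without vehicle 24 h replicate 2 there were 40 kept higher in place of 90, and without IGF1 48 h replicate 4 there were 42. There were 49 without vehicle 48 h replicate 3 and 56 without IGF1 24 h replicate 1.

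Inflammatory cytokines had a median IGF1 difference that lay further below 0 at 48 h than at 24 h, and no member passed the test of the change. Of 20 measured members 1 was lower at 24 h by the adjusted test, against 7.26% of all genes. That call was lost on leaving out any of 11 of the 16 arrays. At 48 h 9 members were lower with an unadjusted p under 0.05 (5.03% of all genes). The median difference was -0.45 and then -0.68, and 4 changes had an unadjusted p under 0.05, all downward (10.2% over all genes). The 4 became 1 without IGF1 48 h replicate 3 or vehicle 24 h replicate 2, and 2 without IGF1 24 h replicate 4, vehicle 24 h replicate 4 or vehicle 48 h replicate 3. Il6 read 1.71, 1.56, 2.18 and 1.65 in vehicle and 0.98, 1.68, 1.68 and 1.88 in IGF1 arrays at 24 h. At 48 h Il6 read 3.42, 3.49, 3.44 and 3.15 in vehicle and 2.12, 0.81, 0.84 and -0.20 in IGF1 arrays. The groups overlapped at 24 h and were far apart at 48 h, when vehicle Il6 had risen by 1.60 (adjusted p 0.00244) while the time difference of IGF1 Il6 was -0.66 (adjusted p 0.136). The difference was -0.22 (adjusted p 0.709) at 24 h and -2.48 (SE 0.34, adjusted p 0.00648) at 48 h, and the change of -2.26 (SE 0.48) had an adjusted p of 0.0607. It was -2.11 on slide 2 and -2.61 on slide 3, and it passed in 5 of 29 alternatives.

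Il11, a cytokine of the same family as Il6, had -0.59 and then -2.13 (change -1.54, adjusted p 0.208), and the neutrophil chemokine Cxcl3 had 0.38 and then -1.61 (change -1.99, adjusted p 0.248). Osm, which codes for oncostatin M, had -0.52 and -1.17. Il1b, the interleukin processed by the inflammasome, had -1.23 and -1.46. The median change of the list was -0.22, and it was -0.03 without IGF1 48 h replicate 4, the array with the lowest Il6, -0.14 without vehicle 24 h replicate 1 and -0.40 without IGF1 48 h replicate 1. Neutrophil markers, the cells that release several of these factors, had a median difference of 0.05 at 24 h and 0.23 at 48 h, and their part was not tested.

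No member of the IGF system passed the test of the change. Igf1, the transcript of the mouse's own hormone, was lower with IGF1 at 24 h (-0.53, adjusted p 0.0296) and stood at 0.08 at 48 h (change 0.61, adjusted p 0.175). It rose with time in both treatments, by 0.95 in vehicle and 1.56 in IGF1 hearts. The receptor Igf1r had -0.29 (adjusted p 0.246) and 0.20 (adjusted p 0.766). The array measures messenger RNA and not the infused protein.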

How the data were processed

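Total RNA was measured on one-colour Agilent mouse arrays. Per the file headers, the scanner output the authors deposited came from Agilent's Feature Extraction, version 12.0.3.2, and its processed signal is a background-corrected intensity. The authors also deposited a log2 value table, which matched the scale used here to a residual SD of 2.19e-06 and served as an alternative. Control spots and outlier spots (53 to 130 of 59305 per array) were left out, spots of a probe were averaged and log2 intensity minus the array's 75th percentile was taken. A probe had to be well above background on at least 4 of 24 arrays. The brightest probe stood for its gene, named through RefSeq accessions (33767 of 56605 probes had 1 symbol, 22838 none and 0 several).

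The comparisons used limma (version 3.58.1, R version 4.3.3) with 1 mean for each of 6 groups over all 24 arrays, 18 residual degrees of freedom, two-sided tests and Benjamini-Hochberg adjustment over 15875 genes at 0.05. Errors are SE of the fit, or SD over 4 arrays. A gene unmeasured in 1 group has a bound, which uses the mean of all 4 arrays of the other group. The number of arrays limits the precision. At 24 h each slide held 1 array of each group, and at 48 h 2 slides held both.

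The members and the 37 gene lists (547 of 593 genes measured) were chosen with earlier results of these data known. Genes were named by rule: official symbols above background on at least 2 arrays of each group, up to 10 per class by size of change (for kept genes, by the smaller of both differences), up to 4 per list and 5 per direction by p, and a set of genes listed by name. The text gives a part of them, and some genes are not reported here. Spns3, Gm17745 and genes with fewer measured arrays fall outside the rule and were named after their values were seen. Alternatives changed the scaling, background correction, probe filter, probe choice, arrays, slide or replicate block and weights, or left out 1 array.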

Additional observations from a re-analysis of the deposited data

Results flagged for a closer look

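In the named genes that passed the test of the change, the IGF1 difference was unlike at 24 h and 48 h by that test. Its log2 change was -1.76 for Tacc2, 2.18 for Spns3, -0.53 for Ptp4a1, -0.73 for Tsacc and -0.84 for S100a1. The other changes were -1.24 for Gm17745, -0.77 for Camk2b and 1.07 for Ncapg2.

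Single arrays lay far from the other 3 of their group in 22 of 328 groups checked over the named genes and the lists described, where chance gives about 1 in 20; the values are log2 levels. IGF1 24 h replicate 1 was the highest for Ogdh at 7.45, Myoz2 at 6.80, Acadm at 6.99 and the respiratory chain list at 7.36. Vehicle 24 h replicate 3 was the lowest for Ncapg2 at -0.54 and Foxm1 at -1.80. IGF1 24 h replicate 3 was the lowest for Pdk4 at 4.96. Vehicle 48 h replicate 1 was the lowest for Pdk4 at 2.06. IGF1 48 h replicate 4 was the lowest for Mki67 at 3.54, Cdc20 at 2.96 and Tonsl at -0.24. Vehicle 48 h replicate 4 was the lowest for Tonsl at -0.48 and Cxcl3 at 0.26. Vehicle 24 h replicate 2 was the highest for Klrd1 at -0.80. IGF1 24 h replicate 4 was the lowest for Cd74 at 2.77. Vehicle 24 h replicate 4 was the highest for Csf1r at 5.45. Vehicle 48 h replicate 2 was the highest for Hif3a at -3.78 and the MHC class II list at 2.42. Vehicle 24 h replicate 3 was the highest for Serpina3m at -1.82 and the monocyte list at 3.07. IGF1 24 h replicate 1 was the lowest for Igf1r at 2.04. IGF1 48 h replicate 4 was the highest for the glucocorticoid list at 3.09.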

How the results depend on the processing

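The count of genes whose IGF1 difference changed was 11, and it was 258 with array weights, 132 with slide as a random block, 17 with slide as a fixed block, 5 with quantile normalization, 3 with no filter on dim probes, 1 with normexp and 0 in the 16 arrays alone. The 6 lost genes became 195, 99, 12, 3, 3, 1 and 0 under these same settings, and 10 with the filter on the 16 arrays or the authors' value table. The 5 reversed genes became 61 with array weights, 32 with the random block, 2 with quantile normalization and 0 without the filter, with normexp and in the 16 arrays alone. Gained genes numbered 2 with array weights and 1 with the random block. Genes kept higher went from 90 to 57 without the filter, 59 with normexp, 205 with the fixed block and 148 with the random block. With adjusted p at 48 h there were 11 lost, 0 kept higher, 1 kept lower and 0 reversed. With the unadjusted p of the change, an alternative chosen after seeing the data like the 75th percentile over spots (8 changed), there were 1506 lost, 68 reversed and 258 gained. Leaving out 1 array gave 2 to 275 changed, 1 to 211 lost, 40 to 133 kept higher, 126 to 298 kept lower, 0 to 62 reversed and 0 to 3 gained. With the replicate block, 31 genes changed, 21 were lost and 10 reversed, but the deviations of same-numbered arrays correlated at -0.05 to 0.13 and the numbers were not taken to pair the samples. At 24 h the same numbers also shared a slide. The cause of these shifts was not tested. The fixed slide block called 56 genes at 48 h in place of 2. No change of a named gene reversed with a passed test. The number of arrays limits what can be resolved: the median SE was 0.18 for a change and 0.13 for a difference at 1 time.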

Other observations

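Interferon-stimulated genes, which answer viral and nucleic acid signals, had a median difference of -0.26 at 24 h and 0.14 at 48 h, and the change was above 0 in 21 of 21 measured members. An unadjusted p under 0.05 was reached by 3 of them (7.19% upward over all genes) and no member passed the adjusted test. The 3 became 0 without replicate 1 or 2 of either group at 24 h or without IGF1 48 h replicate 4, 1 without vehicle 48 h replicate 3 or 4, and 5 without IGF1 24 h replicate 4. Without IGF1 48 h replicate 4, the highest array of its group at 1.97 against 0.88 to 1.17, the median change of 0.39 became 0.15.

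Fibroblast markers had a median difference of 0.24 at 24 h and 0.06 at 48 h, with a median time difference of 0.92 in vehicle and 0.60 in IGF1 hearts. Extracellular matrix genes had -0.29 and -0.01. Glucocorticoid response genes had 0.63 and 0.40, with 5 of 12 higher at 24 h (8.76% over all genes). The 5 became 3 without vehicle 24 h replicate 2. Erythrocyte markers had -0.44 and -0.70, on array means that overlapped at both times.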
